A study of Homo sapiens with 15 samples.

Results

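The genes described here are 10 components of TGF-beta and activin signalling, out of 57820 gene identifiers in the count table: the ligands TGFB1, TGFB2, TGFB3 and INHBA, the receptors TGFBR1, TGFBR2 and TGFBR3, the extracellular antagonists FST and FSTL3, and the TGF-beta-induced gene TGFBI. They were taken as a list of named genes, their symbols were matched to Ensembl identifiers, and all 10 were counted well enough to be tested. RNA-seq had been performed on A673, an Ewing sarcoma cell line that carries the EWS/FLI fusion and goes on growing when the fusion is depleted, with 3 libraries for each of 5 conditions. The iLuc cells received a retroviral shRNA against luciferase and an empty vector, and so kept endogenous EWS/FLI (endo-EF). In iEF cells EWS/FLI itself was the target of the shRNA, again with an empty vector. The 3 rescued conditions received the EWS/FLI shRNA and a 3X-FLAG cDNA in the same pMSCV-hygro retrovirus. The cDNA encoded wildtype EWS/FLI (WT-EF), Δ22, which lacks the EWS domain, or DAF. In DAF, tyrosines in the amino-terminal part of the EWS domain are changed to alanine, while other tyrosines of the domain are kept. All cells, controls included, were thus transduced and selected in 2 µg/mL puromycin, with 400 µg/mL hygromycin B added after the cDNA. The shRNA was delivered on day 1, the cDNA on day 5, and RNA was taken after selection ended on day 16, so every value is from a selected population of 1 cell line.

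TGF-beta and activin ligands are secreted dimers that bring together a type II and a type I serine/threonine kinase receptor at the cell surface. The activated type I receptor phosphorylates SMAD transcription factors, which join SMAD4, enter the nucleus and change the transcription of matrix, cytoskeletal and cell cycle genes. TGF-beta ligands are stored in a latent form bound to carrier proteins, activins are held by follistatins, and the gene of the type II receptor TGFBR2 is a known repressed target of EWS/FLI in Ewing sarcoma.

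The libraries held between 28659475 and 41859880 counts, with a median of 32943231. Levels are given in CPM, counts scaled to a common library size after TMM normalization, which sets a library's effective size from the bulk of its genes. FLI1 reads, which stem from the fusion and from any cDNA that carries the FLI portion, lay at 47.8 to 52.4 CPM in iLuc and 12.9 to 15.5 CPM in iEF. The WT-EF libraries held 16.0 to 18.7 CPM of FLI1, Δ22 24.4 to 36.2 and DAF 22.1 to 27.3 CPM. Of 4 Ewing sarcoma line markers (FLI1, NKX2-2, NR0B1 and CD99), 3 could be tested. Their summed level was 106 to 115 CPM in iLuc, 17.8 to 25.2 in iEF, 60.5 to 80.8 in WT-EF, 29.1 to 55.5 in Δ22 and 38.6 to 72.4 in DAF. This sum includes the FLI1 values above, so in rescued cells part of it can stem from the introduced cDNA. CD99, the surface marker of this tumour, reached 3 counts at most, so the table does not show it. Of 6 markers of blood, endothelial and epithelial cells, 5 were matched, and their summed level was between 0.410 and 1.97 CPM in all libraries. Where a gene is higher in these bulk libraries, more cells that express it and more RNA per cell cannot be told apart.

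Coordinates of the genes are those of GRCh37. The ligand genes were TGFB1 (ENSG00000105329, chr19:41807492-41859827, minus strand), TGFB2 (ENSG00000092969, chr1:218518678-218617961, plus strand), TGFB3 (ENSG00000119699, chr14:76424440-76449354, minus strand) and INHBA (ENSG00000122641, chr7:41706766-41745432, minus strand). The receptor genes were TGFBR1 (ENSG00000106799, chr9:101866320-101916474, plus strand), TGFBR2 (ENSG00000163513, chr3:30648093-30735634, plus strand) and TGFBR3 (ENSG00000069702, chr1:92145900-92371892, minus strand). The antagonists were FST (ENSG00000134363, chr5:52776456-52782964, plus strand) and FSTL3 (ENSG00000070404, chr19:676392-683392, plus strand), and the induced gene was TGFBI (ENSG00000120708, chr5:135364677-135399507, plus strand). On the opposite strand, TGFB1 shares 215 exon bases with HNRNPUL1 (median 8075 counts), TGFB2 shares 701 with TGFB2-AS1 (4 to 260 counts), INHBA shares 248 with INHBA-AS1 (0 to 19 counts) and TGFB3 shares 163 with TGFB3-AS1 (0 to 6 counts). Whether counting used strand is not given in the sources used here, so reads from these shared bases cannot be assigned to one gene or the other.

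The windows around the transcription starts of 4 genes are shown: TGFBI, FST and INHBA because their fold changes between iLuc and iEF lead the induced gene, antagonist and ligand classes, and TGFBR2 because it is the receptor known as an EWS/FLI target. Each runs from 250 bases before a start to 50 bases after it (RefSeq, GRCh38.p14), 5′ to 3′ on the gene's strand, with the capitals marking GGAA, the core of the site that ETS factors such as FLI1 bind, or its reverse complement TTCC. Of the TGFBR2 windows, the downstream one is printed, since it holds the AP-1 motif described next.
TGFBI, chr5:136028738-136029037, plus strand: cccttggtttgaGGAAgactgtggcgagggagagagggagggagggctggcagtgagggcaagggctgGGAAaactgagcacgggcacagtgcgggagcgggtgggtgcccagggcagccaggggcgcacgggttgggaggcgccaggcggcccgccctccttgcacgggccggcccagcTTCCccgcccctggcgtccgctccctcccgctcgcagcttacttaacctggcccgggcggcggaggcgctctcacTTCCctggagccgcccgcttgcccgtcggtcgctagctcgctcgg
FST, chr5:53480379-53480678, plus strand: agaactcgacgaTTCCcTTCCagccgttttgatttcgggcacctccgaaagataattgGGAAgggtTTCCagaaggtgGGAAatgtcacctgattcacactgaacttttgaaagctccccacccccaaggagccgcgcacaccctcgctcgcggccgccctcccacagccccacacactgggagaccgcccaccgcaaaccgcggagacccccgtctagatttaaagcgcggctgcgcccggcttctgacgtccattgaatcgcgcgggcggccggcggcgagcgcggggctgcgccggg
INHBA, chr7:41703041-41703340, minus strand: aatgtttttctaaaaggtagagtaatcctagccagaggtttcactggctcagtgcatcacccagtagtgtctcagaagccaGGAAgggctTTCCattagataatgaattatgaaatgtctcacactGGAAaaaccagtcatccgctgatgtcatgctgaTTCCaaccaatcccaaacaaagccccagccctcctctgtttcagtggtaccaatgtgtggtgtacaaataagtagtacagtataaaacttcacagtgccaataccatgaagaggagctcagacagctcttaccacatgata
TGFBR2, chr3:30606351-30606650, plus strand: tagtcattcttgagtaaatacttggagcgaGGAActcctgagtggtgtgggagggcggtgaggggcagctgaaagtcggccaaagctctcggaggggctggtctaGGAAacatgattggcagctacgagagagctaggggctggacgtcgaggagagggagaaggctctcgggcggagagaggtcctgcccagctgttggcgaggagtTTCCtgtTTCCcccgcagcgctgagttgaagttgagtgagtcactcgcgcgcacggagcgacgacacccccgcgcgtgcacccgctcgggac

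The 10 genes had 19 such windows in the RefSeq table, and 7 of the genes had 1 window each. TGFBR1 had the most windows, among them all those without GGAA. Some windows of TGFBR1 and of TGFBR2 overlap, so the counts below are not of separate sequences. GGAA on either strand was matched in 16 of the 19 windows, with 0 to 8 matches a window and a median of 4, and 95.5% of all 35116 windows of this length held it, with a median of 3. The repeat GGAAGGAA was found in 1 of the 19 windows, a TGFBR1 window, and in 3.67% of all windows. It is shorter than the GGAA microsatellites that the study tested with EWS/FLI, and a match is not itself such a microsatellite. The longer ETS motif CCGGAA was found in 1 TGFBR1 and 1 FSTL3 window, against 17.2% of all windows, and every match of it or of the repeat is also a match of GGAA. The AP-1 motif TGANTCA was found in the FST window and in the printed TGFBR2 window, against 7.71%. The SMAD motif GTCTAGAC was found in none of the 19 (0.202% of all windows), and CAGACA, another sequence SMADs bind, in 4 of the 19 (16.9%). All motifs were searched on both strands, and a match describes letters, not binding.

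The first question was how these genes stood with and without endo-EF. Of the 10 genes, 9 were lower in iLuc than in iEF by edgeR's quasi-likelihood test (Benjamini-Hochberg adjusted p under 0.05, called lower from here on) and none was higher. Over all 28793 genes tested, 22.1% were lower and 19.5% higher. The median log2 fold change of the 10 genes was -2.93, beside 0.04 over all genes tested. Every iLuc library was below every iEF library for all 10 genes. How many of all genes tested had libraries apart in this way was not counted, here or for the comparisons below. WT-EF put back into depleted cells gave the same count, with 9 of 10 genes lower than in iEF (17.0% of all genes tested) and none higher (12.9%), and a median log2 fold change of -1.87 beside -0.01 over all genes. In both comparisons the gene that was not called was TGFB3. DESeq2 called 10 genes in iLuc and 9 in WT-EF. Over all genes that it gave an adjusted p, DESeq2 called 11421 of 28163 in iLuc and 8490 of 26434 in WT-EF. iLuc and WT-EF are compared with the same iEF libraries, so the shared direction is not 2 separate observations.

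**Figure D1:**
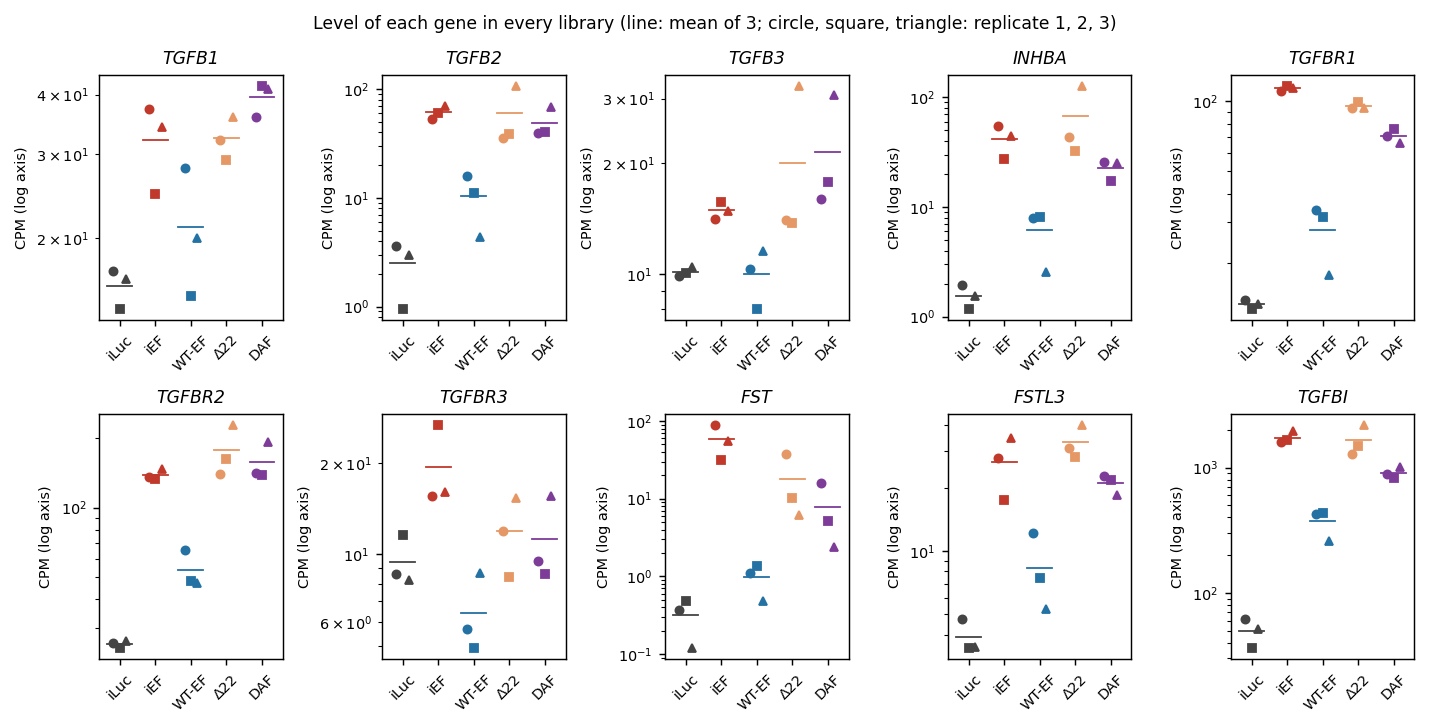
CPM of the 10 genes (log axis, 1 panel a gene) in the 15 libraries by condition, with circles, squares and triangles for replicates 1, 2 and 3 and a line at the mean of 3. The iLuc points lie below the iEF points in every panel, and replicate 3 of Δ22 holds the highest value of 6 genes.

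Among the ligands, TGFB2 and INHBA differed most. TGFB2, one of 3 TGF-beta isoforms, was read at 3.58, 0.954 and 2.96 CPM in iLuc replicates 1, 2 and 3 and at 53.6, 61.0 and 70.5 CPM in iEF. In WT-EF it was read at 16.0, 11.2 and 4.34 CPM, in Δ22 at 35.5, 38.8 and 108 CPM and in DAF at 39.6, 40.3 and 68.2 CPM. The iLuc and WT-EF libraries thus lay below all others and apart from each other, while Δ22, DAF and iEF overlapped, with replicate 3 of Δ22 well above its other replicates. TGFB2 was 25.7-fold lower in iLuc than in iEF (log2 -4.68 ± 0.54 SE, edgeR adjusted p = 5.24e-06). In WT-EF it was 5.63-fold lower than in iEF (log2 -2.49 ± 0.47 SE, edgeR adjusted p = 0.000883).

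INHBA encodes the beta A subunit, which forms activin A as a homodimer. It was read at 1.93, 1.18 and 1.55 CPM in iLuc and 54.5, 27.5 and 44.5 CPM in iEF. WT-EF libraries held 7.92, 8.11 and 2.53 CPM, Δ22 libraries 43.4, 32.6 and 128 CPM and DAF libraries 26.0, 17.4 and 25.4 CPM. The order was therefore iLuc, WT-EF and DAF, each apart from the next, and then iEF and Δ22, which overlapped. Replicate 3 of Δ22 stood far above every other library. INHBA was 26.8-fold lower in iLuc than in iEF (log2 -4.74 ± 0.53 SE, edgeR adjusted p = 3.97e-06) and 6.31-fold lower in WT-EF (log2 -2.66 ± 0.46 SE, edgeR adjusted p = 0.000455).

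TGFB1 and TGFB3, the other TGF-beta isoforms, varied over a narrower range. TGFB1 was read at 17.0, 14.2 and 16.4 CPM in iLuc, 37.3, 24.7 and 34.2 CPM in iEF and 28.0, 15.1 and 20.0 CPM in WT-EF. It was 2.00-fold lower in iLuc than in iEF (SE 0.16 on the log2 scale, edgeR adjusted p = 0.000116). In WT-EF, whose highest library overlapped iEF, the log2 fold change was -0.62 ± 0.16 SE (edgeR adjusted p = 0.00766). That call was lost without iEF replicate 1 (adjusted p = 0.0522), without WT-EF replicate 2 (0.0502), without replicate set 3 (0.0667) and on the authors' ComBat-adjusted counts with limma (0.0675). Wherever the ComBat-adjusted counts are used here, they were scaled by library total alone, without TMM factors and without the replicate block. TGFB1 was highest in DAF, at 35.9, 41.8 and 41.1 CPM, above each Δ22 library (32.2, 29.1 and 35.8 CPM).

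TGFB3 was read at 9.84 to 10.4 CPM in the 3 iLuc libraries, 14.1, 15.7 and 14.9 CPM in iEF and 10.3, 8.03 and 11.5 CPM in WT-EF. Δ22 held 14.0, 13.7 and 32.5 CPM and DAF 16.0, 17.8 and 30.6 CPM, with replicate 3 high in both. Neither iLuc nor WT-EF overlapped iEF, yet neither difference passed the edgeR test with all 15 libraries. Against iEF the log2 fold change was -0.57 in iLuc (95% interval -1.04 to -0.09, edgeR adjusted p = 0.0539) and -0.60 in WT-EF (95% interval -1.08 to -0.13, edgeR adjusted p = 0.0529). The iLuc difference was called without any 1 of iLuc replicate 2, iEF replicate 3, WT-EF replicates 1 or 3 or the 3 Δ22 libraries (adjusted p between 0.0148 and 0.0486). The WT-EF difference was called without any 1 of iLuc replicate 3, iEF replicate 3, WT-EF replicate 1 or Δ22 replicate 3 (adjusted p between 0.0173 and 0.0481). Both were called with no filter on low counts (edgeR adjusted p = 0.00312 for iLuc and 0.00270 for WT-EF), with only the 6 libraries compared (0.00134 and 0.0417) and without replicate set 3 (0.00399 and 0.00381). DESeq2's Wald test called the iLuc difference (adjusted p = 0.0460) and not that of WT-EF.

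Both signalling receptors were lower with endo-EF or WT-EF, with little spread in iLuc and iEF. TGFBR1, the type I receptor kinase, was read at 13.8, 12.7 and 13.3 CPM in iLuc, 111, 117 and 115 CPM in iEF and 33.8, 31.7 and 17.8 CPM in WT-EF. Δ22 held 93.3, 99.1 and 93.7 CPM and DAF 70.9, 76.1 and 66.4 CPM. No pair of neighbouring conditions overlapped, so the order from iEF through Δ22, DAF and WT-EF to iLuc was the same whichever library was taken. TGFBR1 was 8.62-fold lower in iLuc than in iEF (log2 -3.11 ± 0.16 SE, edgeR adjusted p = 3.26e-09). In WT-EF it was 4.18-fold lower than in iEF (log2 -2.06 ± 0.15 SE, edgeR adjusted p = 3.22e-07).

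TGFBR2, the type II receptor kinase that binds ligand and activates TGFBR1, was read at 25.9, 24.6 and 26.5 CPM in iLuc, 136, 134 and 148 CPM in iEF and 65.4, 47.9 and 47.2 CPM in WT-EF. Δ22 held 139.7, 163 and 229 CPM and DAF 141, 139 and 193 CPM, all above the lowest iEF library, while every WT-EF library lay below it and every iLuc library lower still. The fold between iEF and iLuc was 5.41 (log2 -2.44 ± 0.16 SE, edgeR adjusted p = 3.05e-08) and that between iEF and WT-EF 2.58 (log2 -1.37 ± 0.16 SE, edgeR adjusted p = 1.21e-05).

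TGFBR3, or betaglycan, is a co-receptor that presents TGF-beta ligands to TGFBR2 and lacks a kinase. It was read at 8.59, 11.6 and 8.24 CPM in iLuc, 15.6, 26.7 and 16.0 CPM in iEF and 5.68, 4.91 and 8.65 CPM in WT-EF. Δ22 held 12.0, 8.45 and 15.3 CPM and DAF 9.52, 8.63 and 15.6 CPM, and no Δ22 library reached the lowest iEF library. Of the receptors it alone had its lowest mean in WT-EF, although WT-EF and iLuc overlapped. TGFBR3 was lower in iLuc than in iEF (log2 -1.03 ± 0.27 SE, edgeR adjusted p = 0.00669), and without iEF replicate 2, its highest library, the log2 difference was -0.63 and no longer called (adjusted p = 0.0635). The call was also lost without replicate set 1 (edgeR adjusted p = 0.0502). In WT-EF it was 3.10-fold lower than in iEF (log2 -1.63 ± 0.28 SE, edgeR adjusted p = 0.000430).

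Of the antagonists, FST had the largest change of the 10 genes. FST encodes follistatin, a secreted protein that binds activins nearly irreversibly and keeps them from their receptors. Its raw counts were 12, 17 and 4 in iLuc, 3385, 921 and 1904 in iEF and 40, 51 and 18 in WT-EF, which correspond to 0.367, 0.477 and 0.119 CPM, 88.9, 31.1 and 55.4 CPM and 1.11, 1.35 and 0.479 CPM. Δ22 held 37.8, 10.4 and 6.22 CPM and DAF 15.9, 5.17 and 2.38 CPM, replicate 1 being the highest in each and also in iEF. The replicates of one condition differed several-fold, yet no iLuc or WT-EF library reached the lowest DAF library. FST was 193-fold lower in iLuc than in iEF (log2 -7.59 ± 0.58 SE, edgeR adjusted p = 9.25e-08), a size that rests on the few counts in iLuc, and 61.6-fold lower in WT-EF than in iEF.

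FSTL3, a follistatin relative that also binds activins, was read at 4.74, 3.45 and 3.49 CPM in iLuc, 27.6, 17.4 and 34.5 CPM in iEF and 12.1, 7.48 and 5.30 CPM in WT-EF. Δ22 held 30.9, 28.0 and 39.8 CPM and DAF 22.7, 21.7 and 18.5 CPM. iLuc and WT-EF were apart from each other and below the other 3 conditions, which overlapped in part. FSTL3 was 6.78-fold lower in iLuc than in iEF (log2 -2.76 ± 0.26 SE, edgeR adjusted p = 9.21e-07) and 3.21-fold lower in WT-EF (log2 -1.68 ± 0.25 SE, edgeR adjusted p = 0.000126).

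TGFBI encodes a secreted matrix protein whose transcription TGF-beta induces. It was read at 61.7, 36.3 and 51.8 CPM in iLuc, 1586, 1658 and 1956 CPM in iEF and 423, 434 and 259 CPM in WT-EF. Δ22 held 1275, 1474 and 2186 CPM and DAF 887, 831 and 1001 CPM. From iLuc through WT-EF and DAF up to Δ22, no neighbouring conditions overlapped, while Δ22 and iEF did. TGFBI was 34.9-fold lower in iLuc than in iEF (log2 -5.12 ± 0.26 SE, edgeR adjusted p = 3.09e-09) and 4.60-fold lower in WT-EF than in iEF (log2 -2.20 ± 0.23 SE, edgeR adjusted p = 5.55e-06).

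Levels of different genes were compared per kb of exon. In iEF, TGFBI had the highest mean at 225 CPM per kb, followed by FST at 21.2 ± 10.6 and TGFBR2 at 20.3 ± 1.10 (SD, n = 3), which did not differ beyond their spread, and then by TGFBR1 at 14.3 and TGFB2 at 10.2 CPM per kb. TGFB1 (9.82), FSTL3 (8.74), INHBA (5.09), TGFB3 (2.85) and TGFBR3 (2.27 CPM per kb) came after. In iLuc the order was different, with TGFBI at 6.47, TGFB1 at 4.86, TGFBR2 at 3.75 and TGFB3 at 1.93 CPM per kb in front and TGFB2 (0.412), INHBA (0.187) and FST (0.117 CPM per kb) last. Among the TGF-beta isoforms, TGFB2 and TGFB1 were thus about equal in iEF, while TGFB1 was the main one in iLuc. Over the conditions, the mean level was lowest in iLuc for 8 genes and in WT-EF for 2 (TGFB3 and TGFBR3), and highest in iEF for 5, in Δ22 for 3 (TGFBR2, INHBA and FSTL3) and in DAF for 2 (TGFB1 and TGFB3).

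The next question was what the constructs without an intact EWS domain did to these genes. In Δ22 cells 1 of the 10 genes was lower than in iEF and none was higher, where 0.830% of all genes tested were lower and 0.472% higher. The median log2 fold change of the 10 genes was -0.03 beside 0.01 over all genes. The gene called was FST, 4.11-fold lower in Δ22 (log2 -2.04 ± 0.40 SE, edgeR adjusted p = 0.0207) and lower in all 3 replicate sets, although replicate 1 of Δ22 exceeded replicate 2 of iEF. That call was lost without iEF replicate 1 (adjusted p = 0.0616), iEF replicate 3 (0.0780), Δ22 replicate 2 (0.145) or Δ22 replicate 3 (0.137), without replicate set 2 (0.242), and in the model without the replicate block (0.305).

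For the other 9 genes the interval of the difference between Δ22 and iEF gives the range that these libraries allow. TGFBR1 had the log2 fold change -0.26 (95% interval -0.58 to 0.05), TGFBI -0.08 (-0.56 to 0.39) and TGFB1 0.03 (-0.30 to 0.36). These intervals leave out the fold changes of the same genes in iLuc, as do those that follow except that of TGFBR3. TGFBR2 had 0.34 (0.01 to 0.67), TGFBR3 -0.73 (-1.32 to -0.14), FSTL3 0.33 (-0.18 to 0.84) and TGFB3 0.33 (-0.14 to 0.80). The widest intervals were those of TGFB2, -0.12 (-1.06 to 0.82), and INHBA, 0.64 (-0.27 to 1.55). With no filter on low counts INHBA was called higher (edgeR adjusted p = 0.0320) and TGFBR3 lower (0.00638), and TGFBR3 also without replicate set 3 (0.0303). Replicate 3 of Δ22 had the highest level of 6 of the 10 genes among all 15 libraries, and without it the INHBA difference turned to -0.21 (adjusted p = 0.913). Its NR0B1 level, 18.7 CPM against 3.60 and 9.78 in the other Δ22 libraries, also stood apart. Without this library TGFB3 had a log2 fold change of -0.00251 against iEF (edgeR adjusted p = 1).

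In DAF cells 3 of the 10 genes were lower than in iEF and none was higher, where 6.19% of all genes tested were lower and 5.00% higher. The median log2 fold change was -0.52 beside 0.00 over all genes. FST was 9.33-fold lower in DAF than in iEF (log2 -3.22 ± 0.42 SE, edgeR adjusted p = 0.000248), TGFBI 1.91-fold (log2 -0.94 ± 0.22 SE, edgeR adjusted p = 0.0138) and TGFBR1 1.61-fold (log2 -0.69 ± 0.15 SE, edgeR adjusted p = 0.00740). DAF and iEF libraries did not overlap for any of these. The TGFBR1 call was lost without iEF replicate 3 (adjusted p = 0.0507), without replicate set 1 (0.0677) and without replicate set 2 (0.0987). The TGFBI call was lost without iEF replicate 3 or any 1 of the DAF libraries (adjusted p between 0.0516 and 0.0661), without replicate set 1 (0.0649) or 2 (0.118) and on the ComBat-adjusted counts (0.0812).

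The remaining 7 genes were not called in DAF by edgeR with all 15 libraries. DESeq2 called 4 of the 10, and over all genes it called 3798 of the 21248 that it gave an adjusted p. TGFBR2 had a log2 fold change of 0.17 against iEF (95% interval -0.16 to 0.50), beside -2.44 in iLuc and -1.37 in WT-EF. TGFB1 had 0.34 (0.00 to 0.67), TGFB3 0.46 (-0.01 to 0.93), TGFB2 -0.36 (-1.29 to 0.57) and FSTL3 -0.31 (-0.83 to 0.20). Every DAF library was above every iEF library for TGFB3. INHBA had -0.86 (-1.77 to 0.05), with every DAF library below every iEF library, and was called with no filter (edgeR adjusted p = 0.000436), with only the 6 libraries compared (0.000599) and without replicate set 3 (0.00355). TGFBR3 had -0.83 (-1.41 to -0.24, edgeR adjusted p = 0.0701) and was called without iEF replicate 3 (adjusted p = 0.0311), without replicate set 3 (0.00324), with no filter (0.000410) and by DESeq2 (0.0324).

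**Figure D2:**
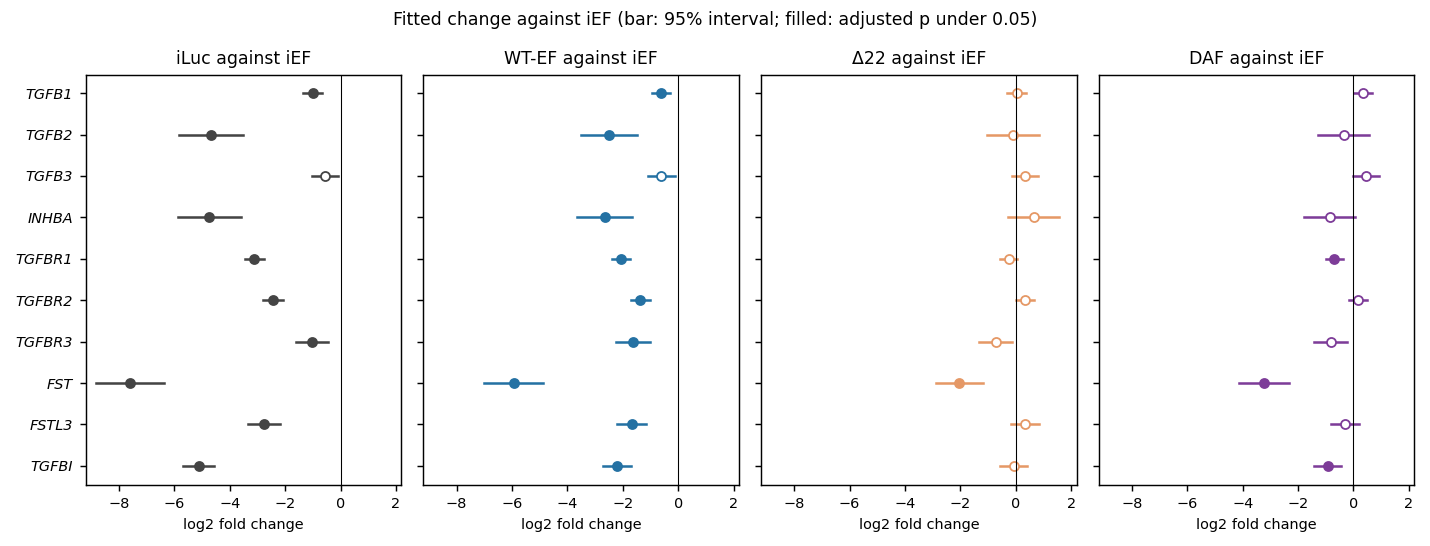
Fitted log2 fold changes of the 10 genes against the same 3 iEF libraries in iLuc, WT-EF, Δ22 and DAF, with 95% intervals and filled points for an adjusted p under 0.05. In iLuc and WT-EF 9 of the 10 points are filled and below 0, in Δ22 only FST, and in DAF FST, TGFBI and TGFBR1.

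WT-EF cells were also compared with iLuc cells, which asks how far rescue reached the level under endo-EF. Of the 10 genes, 6 were higher in WT-EF than in iLuc and none was lower, where 10.7% of all genes tested were higher and 9.03% lower. DESeq2 called 7 of the 10, and 6243 of the 22112 genes that it gave an adjusted p. The median log2 fold change was 1.07 beside -0.01 over all genes. TGFBI was 7.58-fold higher in WT-EF (log2 2.92 ± 0.24 SE, edgeR adjusted p = 3.21e-06), TGFBR2 2.10-fold (log2 1.07 ± 0.16 SE, edgeR adjusted p = 0.000318) and TGFBR1 2.06-fold (log2 1.04 ± 0.15 SE, edgeR adjusted p = 0.000319). On the ComBat-adjusted counts the log2 difference of TGFBI was 1.75 and that of TGFB2 1.41, both still called.

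The other genes called higher in WT-EF than in iLuc rested on fewer libraries. TGFB2 was 4.56-fold higher (edgeR adjusted p = 0.00784) and lost its call without WT-EF replicate 1 (adjusted p = 0.0549) and without replicate set 1 (0.0574) or 2 (0.169). INHBA was 4.24-fold higher (edgeR adjusted p = 0.0113) and lost its call without WT-EF replicate 2 (adjusted p = 0.0786) and without replicate set 1 (0.105) or 2 (0.170). FSTL3 was 2.11-fold higher (edgeR adjusted p = 0.00915) and lost its call without WT-EF replicate 1 (adjusted p = 0.0546) and without replicate set 1 (0.131) or 2 (0.0964). FST, at few counts in both conditions, had a log2 fold change of 1.65 (95% interval 0.20 to 3.09, edgeR adjusted p = 0.108) and was called without iEF replicate 3 (adjusted p = 0.0256), without replicate set 3 (0.0348), with no filter (4.56e-05), with only the 6 libraries compared (0.0117) and by DESeq2 (0.0359). For TGFB1 the difference was 0.39 (0.05 to 0.73), for TGFB3 -0.04 (-0.52 to 0.44) and for TGFBR3 -0.60 (-1.19 to 0.00). With no filter TGFB1 was called higher (edgeR adjusted p = 0.0320) and TGFBR3 lower (0.0189), and TGFBR3 also without replicate set 3 (0.0149). The sign of the TGFB3 difference turned when iLuc replicate 1 or 2, WT-EF replicate 2 or 3, Δ22 replicate 2 or DAF replicate 2 was left out.

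WT-EF and DAF differ by tyrosines in the amino-terminal part of the EWS domain, not by all of its tyrosines. All 10 genes were lower in WT-EF than in DAF, where 16.1% of all genes tested were lower and 12.4% higher. Each of the 10 was lower in all 3 replicate sets, but how many of all genes tested kept their direction in this way was not counted. The median log2 fold change was -1.37 beside -0.01 over all genes. FST was 6.60-fold lower in WT-EF than in DAF (edgeR adjusted p = 0.000661), TGFB2 4.39-fold (edgeR adjusted p = 0.00302), INHBA 3.47-fold (edgeR adjusted p = 0.00770) and TGFBR2 2.91-fold (edgeR adjusted p = 9.10e-06). TGFBR1, FSTL3 and TGFBI were 2.59-fold, 2.59-fold and 2.41-fold lower (edgeR adjusted p = 1.59e-05, 0.000777 and 0.000673). TGFB3 and TGFB1 were 2.10-fold and 1.94-fold lower (edgeR adjusted p = 0.00208 and 0.000385).

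TGFBR3 was the least certain of these. Its WT-EF libraries overlapped DAF, its log2 fold change was -0.80 ± 0.28 SE (edgeR adjusted p = 0.0427), and the call was lost without any 1 of iLuc replicate 1, iEF replicate 1, WT-EF replicates 1 or 2 or DAF replicates 1 or 3 (adjusted p between 0.0517 and 0.235) and without replicate set 1 (0.169). It was also lost with RLE size factors (adjusted p = 0.0509), on the ComBat-adjusted counts (0.0888) and without the replicate block (0.0558). For the other 9 genes no WT-EF library reached the lowest DAF library, and the share of all genes tested with libraries apart in this way was not counted.

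DAF and Δ22 share the lack of an intact EWS domain. None of the 10 genes was called between them, where 0.379% of all genes tested were lower in DAF and 0.948% higher. The edgeR p before adjustment was under 0.05 for 5 of the 10, but the share of all genes under that threshold was not counted. DESeq2's Wald test called 1, TGFBI (adjusted p = 0.0125), and over all genes 780 of the 17790 that it gave an adjusted p. The median log2 fold change was -0.33 beside -0.02 over all genes. INHBA had -1.50 (95% interval -2.43 to -0.57), FST -1.18 (-2.03 to -0.33) and TGFBI -0.85 (-1.33 to -0.38). FSTL3 had -0.64 (-1.16 to -0.13) and TGFBR1 -0.43 (-0.74 to -0.11). These 5 genes were lower in DAF in all 3 replicate sets, and for all but FST the libraries did not overlap. Neither trait was counted over all genes tested.

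With only the 6 libraries compared, edgeR called 6 of the 10 between DAF and Δ22, namely INHBA, FST, TGFBI, FSTL3, TGFBR1 and, in the higher direction, TGFB1 (adjusted p = 0.00743), and with no filter it called the same genes but TGFB1. Over all genes, edgeR called 2744 of 28743 with only the 6 libraries and 1214 of 44588 with no filter. Without replicate set 3, TGFBI and INHBA were called (edgeR adjusted p = 0.0339 and 0.0180). With WT-EF replicate 3 left out of the model, a library that belongs to neither condition, TGFBR1, TGFBI and INHBA were called lower in DAF than in Δ22 (adjusted p = 0.00892, 0.00566 and 0.0144 by edgeR). TGFBR2 had -0.16 (-0.49 to 0.16), TGFB2 -0.24 (-1.18 to 0.69) and TGFBR3 -0.10 (-0.68 to 0.49), and all 3 turned sign without Δ22 replicate 3. TGFB1 had 0.31 (-0.03 to 0.64), with every DAF library above every Δ22 library, and TGFB3 0.13 (-0.33 to 0.60).

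**Figure D3:**
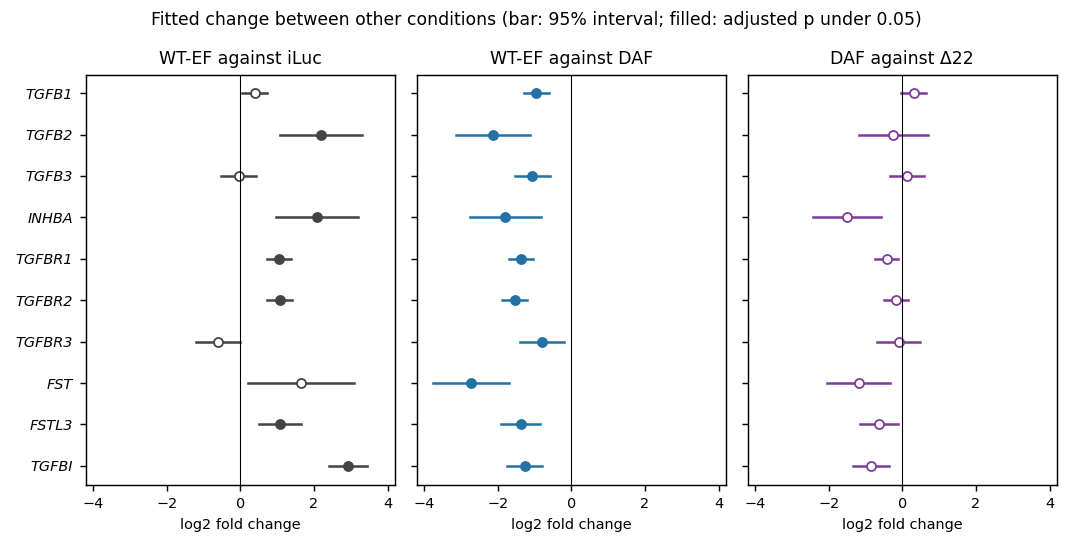
Fitted log2 fold changes of the 10 genes for WT-EF against iLuc, WT-EF against DAF and DAF against Δ22, with 95% intervals and filled points for an adjusted p under 0.05. Of the points, 6 are filled and above 0 for WT-EF against iLuc, all 10 are filled and below 0 for WT-EF against DAF, and none is filled for DAF against Δ22.

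The genes whose log2 CPM followed a given gene most closely over the 15 libraries, among 12935 genes averaging at least 50 counts, were as follows. TGFBR2 was followed by FMNL3 (Pearson r = 0.995) and SLC41A2 (r = 0.994), and TGFBI by FRMD4A (r = 0.996) and PLAU (r = 0.994). INHBA was followed by HOXB2 (r = 0.989) and UBA6 (r = 0.985), and FST by GJC1 (r = 0.985) and ITGA6 (r = 0.981). These values describe 15 libraries of 5 conditions that share their differences between conditions, and were chosen as the highest of many.

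A list of 62 other genes of the pathway was read from the same model, of which 57 were tested and INHBC, LEFTY1, LEFTY2, TDGF1 and CDKN2B were too low. In iLuc against iEF, 40 were lower and 6 higher (median log2 -1.84), and in WT-EF against iEF 32 were lower and 6 higher (median -1.10). In Δ22 against iEF 1 was lower and 2 higher (median 0.07), and none of these 3, LTBP1, ACVRL1 and CDKN1A, was called by edgeR without the replicate block. In DAF against iEF 5 were lower and 8 higher (median -0.06). The shares of all genes tested and their medians, given above for each comparison, are the values to read these counts against.

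Of the genes that store and activate TGF-beta, 9 of 10 were lower and 1 was higher in iLuc than in iEF. THBS1, a matrix protein that activates latent TGF-beta, was at 1.01 ± 0.249 CPM (SD, n = 3) in iLuc, 139 ± 47.3 in iEF and 3.83 ± 1.86 in WT-EF (edgeR adjusted p = 1.15e-08 for iLuc and 2.49e-07 for WT-EF). LTBP1, a latent TGF-beta binding protein, was at 1.53 ± 0.412 CPM in iLuc, 49.7 ± 6.23 in iEF, 3.48 ± 0.413 in WT-EF, 33.2 ± 2.63 in Δ22 and 10.4 ± 1.60 in DAF. It was called lower than in iEF in all 4 conditions (edgeR adjusted p = 1.03e-10, 3.19e-09, 0.0419 and 1.94e-06), the Δ22 call being lost without the replicate block. LRRC32, which tethers latent TGF-beta to the cell surface, had the log2 fold change -5.84 in iLuc (edgeR adjusted p = 6.04e-06) but 1.95 in DAF (edgeR adjusted p = 0.00591). The size in iLuc rests on raw counts of 2, 0 and 5 there, against 142, 120 and 142 in iEF. LTBP2, another latent TGF-beta binding protein, had -2.85 in WT-EF (edgeR adjusted p = 2.09e-06), and LTBP4 was the gene that was higher in iLuc (named after its value was seen).

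Among widely used TGF-beta target genes, 18 of 19 tested were lower in iLuc than in iEF and none was higher, and in WT-EF 15 were lower and none was higher. IGFBP3, an IGF-binding protein, had a log2 fold change of -7.60 in iLuc and -5.13 in WT-EF against iEF (edgeR adjusted p = 9.27e-10 and 4.34e-08), and in DAF it was 1.99-fold lower (edgeR adjusted p = 0.0164). LOX, which cross-links collagen, had -6.74 in iLuc and -3.22 in WT-EF (edgeR adjusted p = 1.58e-08 and 7.33e-06). The study counts IGFBP3 and LOX, like TGFBR2, among targets that EWS/FLI represses directly. Whether TGF-beta signalling changed them here was not tested. In DAF against iEF 4 target genes were lower and 2 higher, and in Δ22 the cell cycle inhibitor gene CDKN1A was the only one called, and it was higher (log2 0.82, edgeR adjusted p = 0.0148), a call lost without the replicate block. CDKN1A was named after its value was seen.

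Of 14 SMADs and their regulators, 8 were lower and 1 higher in iLuc than in iEF. SMAD3, which carries the receptors' signal, had the log2 fold change -2.48 in iLuc and -2.01 in WT-EF (edgeR adjusted p = 5.86e-08 and 1.08e-06). SMAD7, an inhibitor that SMAD signalling induces, had -2.17 and -1.10 (edgeR adjusted p = 2.33e-06 and 0.00138), the inhibitor PMEPA1 had -2.03 in iLuc (edgeR adjusted p = 1.29e-05), and the ubiquitin ligase SMURF2 had -1.31 in WT-EF (edgeR adjusted p = 2.95e-05). SMAD2 and SMAD4, the other transducers, had 0.06 (95% interval -0.10 to 0.22) and -0.02 (-0.20 to 0.15) in iLuc and were not called there. These last 2 were chosen after their values were seen.

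Other receptors went both ways, with 4 of 8 tested lower and 3 higher in iLuc than in iEF. ACVR2B, a type II activin receptor, was higher in iLuc (log2 2.08, edgeR adjusted p = 4.85e-07) and in WT-EF (log2 0.88, edgeR adjusted p = 0.00196). ENG, the co-receptor endoglin, was lower in both (log2 -1.59 and -1.23, edgeR adjusted p = 2.42e-05 and 0.000362). ACVRL1, a type I receptor known from endothelial cells, was at 0.244 ± 0.0627 CPM in iLuc, 0.724 ± 0.356 in iEF, 3.27 ± 0.849 in WT-EF, 2.60 ± 1.77 in Δ22 and 8.43 ± 5.45 in DAF. It was lower than in iEF in iLuc (edgeR adjusted p = 0.00772) and higher in WT-EF, Δ22 and DAF (edgeR adjusted p = 7.40e-05, 0.0146 and 1.93e-05), the Δ22 call being lost without the replicate block. CDH5, an endothelial marker, averaged 0.140 CPM in iEF and 0.281 CPM in DAF, both very low. The summed blood, endothelial and epithelial markers were at 0.674 to 1.19 CPM in iEF and 0.773 to 1.58 CPM in DAF, which overlap. Of 6 other ligands tested, GDF11 was higher in iLuc than in iEF (log2 0.84, edgeR adjusted p = 0.000156). INHBB, the beta B subunit of activin B, was lower in iLuc at very low levels (0.0201 ± 0.0174 CPM against 0.444 ± 0.302 CPM, edgeR adjusted p = 0.00329), and was named after its value was seen.

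**Figure D4:**
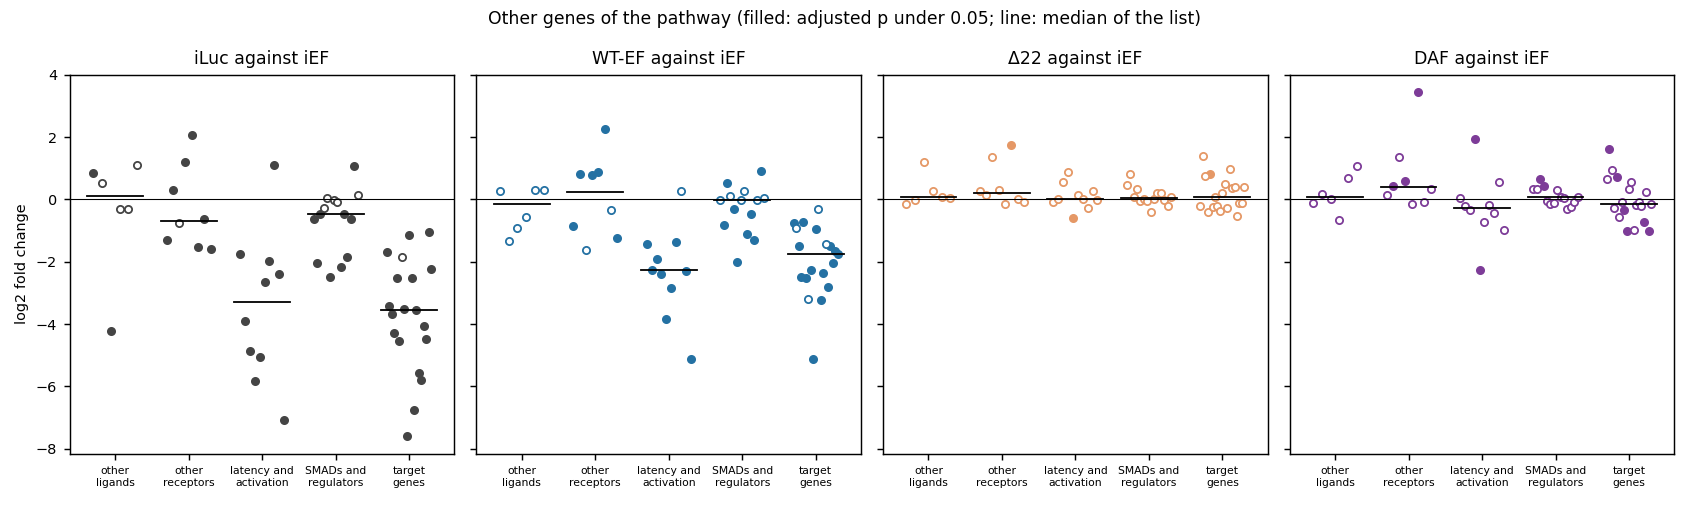
Fitted log2 fold changes of the 57 other pathway genes tested against iEF in iLuc, WT-EF, Δ22 and DAF, grouped into 5 lists, with filled points for an adjusted p under 0.05 and a line at the median of each list. The latency and target lists lie mostly below 0 in iLuc and WT-EF, with medians of -3.28 and -3.53 in iLuc, and near 0 in Δ22 (0.03 and 0.07).

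In the comparisons between constructs the same list gave 30 genes higher and 6 lower in WT-EF than in iLuc (median log2 0.60). In WT-EF against DAF 36 were lower and 5 higher (median -1.21), and in DAF against Δ22 1 was lower and 2 higher (median -0.10).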

How the data were processed

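Total RNA of 15 A673 libraries, 3 for each of 5 conditions, had been sequenced. The authors aligned reads to hg19 with STAR (version 2.5.1b in the submitters' processing notes) and deposited raw read counts per gene from htseq-count for 57820 identifiers. The annotation version and the strand setting are not given in the sources used here. The authors also deposited ComBat batch-adjusted counts on another scale (27002 genes, FST not among them) and a table of their own fold changes and adjusted p-values, which was not used. In the tables, 3 columns of other samples were not used.

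The 28793 genes with a mean of 1 count or more were fitted in edgeR 4.0.16 under R 4.3.3 (TMM normalization, quasi-likelihood test, prior count 2 for log2 CPM), with all 15 libraries and the replicate number as a block, and p-values were adjusted by Benjamini-Hochberg over all genes tested. TMM takes most genes as unchanged, so a shift of all genes would not be seen. The block follows the authors' batch adjustment of each replicate set. After removal of condition means, libraries with the same number correlated with a median r of 0.185 over 30 pairs (-0.183 to 0.780), against -0.0842 over 60 pairs with other numbers (13178 genes). The study calls its growth assays of the profiled cells independent experiments, while the labels do not say how the cultures behind each library were made, so p-values measure the spread between these libraries, however they arose. Library totals of 28659475 to 41859880 counts set the precision of low genes such as FST in iLuc. The script was tested on simulated counts.

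Symbols came from the annotation, GENCODE for GRCh37, whose exon unions gave the CPM per kb, and promoter windows came from RefSeq on GRCh38.p14. Named were all 10 genes, FLI1 and, in each list of other pathway genes, the 3 largest changes of iLuc and of WT-EF against iEF (adjusted p under 0.05, at least 50 counts on average, same direction in all 3 replicate sets). A gene that this rule names is not reported here. The genes most alike in pattern also averaged at least 50 counts. The 10 genes and the lists were chosen with earlier results of these data known. Alternatives, up to 25 for each comparison, were RLE size factors, other filters on low counts, no block, only the 6 libraries compared, DESeq2 1.42.0, limma 3.58.1 on the ComBat-adjusted counts, and each replicate set or library left out. The ComBat-adjusted counts were scaled by library total, without TMM factors, and fitted without the block.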

Additional observations from a re-analysis of the deposited data

How the results depend on the processing

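Of 1743 fold changes of the 10 genes under the alternatives, 1616 kept their direction and side of the threshold, 41 lost a call, 53 gained one and 33 turned sign, none of them a called one. Of 38 called differences, 29 stayed called under every alternative that gave a value (FST has none on the ComBat-adjusted counts). The cause of the changes that follow was not tested. Of the 10 genes, Δ22 against iEF called 1, but 3 with no filter, 0 without the replicate block, 0 on the ComBat-adjusted counts and 0 to 2 with a replicate set or library left out. DAF against iEF called 3, but 5 with no filter, 1 on the ComBat-adjusted counts and 1 to 5 with one left out. WT-EF against iLuc called 6, and 3 to 8 with one left out. DAF against Δ22 called 0, but 5 with no filter, 6 with only the 6 libraries compared, 1 by DESeq2 and 0 to 3 with one left out. Of the other pathway genes, Δ22 against iEF called 3, but 14 with no filter, 0 without the block, 5 by DESeq2 and 0 to 7 with one left out. DAF against iEF called 13, but 20 with no filter, 8 without the block, 21 with only the 6 libraries and 4 to 20 with one left out. WT-EF against iLuc called 36, and 18 to 41 with one left out. DAF against Δ22 called 3, but 16 with no filter, 27 with only the 6 libraries, 9 by DESeq2, 6 on the ComBat-adjusted counts and 1 to 13 with one left out. The fold changes that turned sign ranged, with one left out, as follows on the log2 scale. In Δ22 against iEF they were TGFB1 (-0.070 to 0.16), TGFB2 (-0.70 to 0.22), TGFB3 (-0.087 to 0.59), TGFBI (-0.34 to 0.12) and INHBA (-0.21 to 1.08), and in DAF against iEF FSTL3 (-0.61 to 0.042). In WT-EF against iLuc it was TGFB3 (-0.16 to 0.11, and 0.000116 with RLE size factors). In DAF against Δ22 they were TGFB2 (-0.56 to 0.38), TGFB3 (-0.026 to 0.50), TGFBR2 (-0.32 to 0.022) and TGFBR3 (-0.32 to 0.094). Over all genes, Δ22 against iEF called 375, but 1514 with no filter, 175 without the block and 1078 by DESeq2, and DAF against Δ22 called 382, but 1214, 177 and 780, and 2744 with only the 6 libraries. WT-EF against iLuc called 5679, and 3710 with only the 6 libraries. DAF against iEF called 3223 of 28793, but 3936 of 44588 with no filter and 3598 of 27002 on the ComBat-adjusted counts. Without the block it called 2379, and with only the 6 libraries 3810. With each replicate set or library left out, the counts ran from 8562 to 12276 for iLuc against iEF, 5621 to 8682 for WT-EF against iEF, 0 to 961 for Δ22 against iEF, 1068 to 4077 for DAF against iEF, 1831 to 6840 for WT-EF against iLuc, 5245 to 8214 for WT-EF against DAF and 84 to 741 for DAF against Δ22. Limma on the ComBat-adjusted counts used a smaller set of genes on another scale, and also no block and no TMM factors. In the main fit the TMM factors were 1.04 to 1.09 in iLuc, 1.05 to 1.11 in WT-EF and 0.894 to 0.977 in iEF. These differences were not tested one by one. Together they moved the median of all genes to 0.21 in iLuc and 0.17 in WT-EF against iEF, and the split of calls with it: 8542 higher and 5086 lower in iLuc (5624 and 6368 on raw counts), 6853 and 3586 in WT-EF (3704 and 4898), 281 and 223 in Δ22 (136 and 239), 2274 and 1324 in DAF (1440 and 1783), all against iEF, and 5525 and 3859 in WT-EF against DAF (3573 and 4628). The split moved by over 10 points also for Δ22 against iEF with no filter (784 and 730) and for DAF against Δ22 (273 and 109) with no filter (663 and 551), without the block (147 and 30), with only the 6 libraries (1411 and 1333) and by DESeq2 (469 and 311). Depth limits FST in iLuc, at 4 to 17 counts, and 3 libraries a condition limit the small differences between Δ22, DAF and iEF.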
